A study of Mus musculus with 18 samples.

Results

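Indo, the gene now called Ido1, and Wars are the pair of genes described here, 2 of 31165 genes in the expression table of sorted mouse colon epithelial cells. Every probe that the table names Indo or Wars was taken, which gave 1 Indo probe and 4 Wars probes out of 45281. Both genes were selected on measured values of these samples, so their levels and differences are given as a description with no test. The comparison of genotypes addresses what loss of Mbd2, a protein that binds methylated CpG sites, changes in the RNA of this epithelium at rest and in colitis. The mice were Mbd2-/- (KO) or wild-type (WT) littermates on a C57BL/6 background, 8 to 22 weeks old, and either drank water with 2% dextran sulphate sodium (DSS), an agent that injures the colon epithelium, for 6 days (DSS_WT, DSS_KO) or were left untreated (Naive_WT, Naive_KO). In Mbd2-/- mice the deletion is carried by every cell of the animal, not by the epithelium alone. The sample titles say KO alone, and the study's methods describe sorting for arrays after 6 days of DSS. That the Naive_KO mice carry the same deletion is taken from the shared label. Cells were sorted by flow cytometry as positive for EpCAM, which marks epithelium, and negative for CD45, CD3 and a macrophage surface antigen, and the study pooled 1 to 10 mice per replicate over its experiments, without the number for each sample. There were 4 samples in each of the 4 groups. Arrays 4R and 5R carry the labels of replicates 4 and 5 and were averaged with them, so 18 arrays gave 16 samples.

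Indoleamine 2,3-dioxygenase, the product of Ido1, opens the ring of tryptophan and so starts the kynurenine route, which consumes the amino acid and yields ligands of the aryl hydrocarbon receptor. It is known as an interferon-gamma target in macrophages, dendritic cells and epithelium, and in the gut it rises in inflamed mucosa. Wars encodes the cytosolic enzyme that loads tryptophan onto its tRNA, and is unusual among the tRNA synthetases in being induced by interferon gamma as well.

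The probes are 50 bases long, and the first 30 bases of each are shown so that the 5 measurements of both genes can be told apart. All letters are in lower case because no part is singled out, and each is written 5′ to 3′ as the table gives it, on the minus strand. The coordinates are those of the table, which does not name the genome build.
Indo (Ido1), ILMN_1223600, chr8:25694844-25694893, cytoband 8qA2, starting at base 1274 of the RefSeq transcript: gctcttctgagttggccttagtgtagcaag
Wars, ILMN_1254157, chr12:110098379-110098428, cytoband 12qF1, starting at base 1639: cagcgttctccctctgggcgggctgcatgg
Wars, ILMN_3156343, chr12:110099540-110099589, starting at base 1413: tcatagacgtccttcagcccctgatcgcag
Wars, ILMN_3077377, chr12:110104257-110104306, starting at base 1141: gcagggtgctcagaccaagatgagtgccag
Wars, ILMN_2445477, chr12:110126596-110126645, starting at base 151: caacagcatagctactcaaggggagctcgt
No other probe of the array shares 20 bases with any of the 5 on either strand. The 4 Wars probes lie along the same transcript, from near its 5′ end (base 151) to the probe closest to the 3′ end (base 1639), and are called below by these start positions. The probe at base 1413 is marked in the table as matching all isoforms of the gene and that at base 1141 as specific to an isoform.

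Each array detected between 18851 and 20618 of the 45281 probes at a detection p under 0.05, the share of negative control probes that are as bright. Levels are log2 signals after correction against the 936 negative controls and quantile normalization (neqc), with an offset of 16 added before log2. A probe was tested across all groups if at least 4 of the 18 arrays detected it, and it was called at an adjusted p under 0.01 with a log2 difference of at least 1 in either direction. The probe for Mbd2 itself was detected on 0 of 18 arrays, in WT as in KO, so it could not check the genotype labels.

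Indo ran from the background of the array to a bright signal, its group means in the order Naive_WT, Naive_KO, DSS_WT and DSS_KO. In Naive_WT its log2 signal was 5.15, 4.39, 4.81 and 4.33 in replicates 9 to 12, a mean of 4.67 ± 0.38 (SD, n = 4). In that group 1 of 4 arrays detected it, replicate 9 at a detection p of 0.0331, and the raw signals of 99.3 to 131 lie beside a mean negative control signal of 105 to 111 on those arrays. The other 3 groups detected Indo on every array, 4 of 4 in Naive_KO, 5 of 5 in DSS_WT and 5 of 5 in DSS_KO.

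In Naive_KO, replicates 13 to 16 read 11.07, 8.01, 8.82 and 8.50 (mean 9.10 ± 1.36), so that replicate 13 stood above the other three. In DSS_WT, replicates 1 to 4 read 9.17, 7.62, 10.63 and 10.36 (mean 9.44 ± 1.37). In DSS_KO, replicates 5 to 8 read 12.49, 12.14, 12.29 and 12.93 (mean 12.46 ± 0.34), the narrowest group. Naive_KO and DSS_WT overlapped and their means differed by 0.34, less than the SD within either group. Every other pair of groups was separate: no Naive_WT sample reached any other sample, and no DSS_KO sample fell to the level of another group. Groups did not overlap at 12.3% (Naive_KO and Naive_WT), 14.7% (DSS_KO and DSS_WT), 17% (DSS_WT and Naive_WT) and 15.9% (DSS_KO and Naive_KO) of all tested probes, and since Indo was chosen for its values nothing is read from its own separation. RNA from sorted populations cannot tell fewer expressing cells from less RNA per cell.

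**Figure D1:**
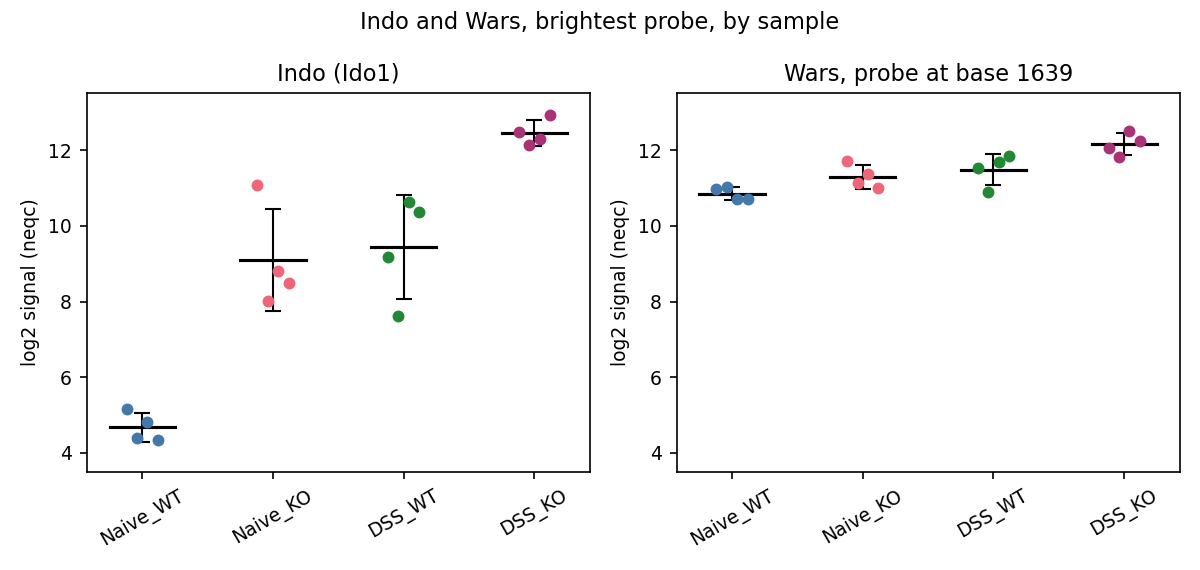
Log2 signal (neqc) of Indo and of the brightest Wars probe in the 16 samples, 4 per group, on the same scale; points are samples, lines group means and bars SD. Indo spans 4.33 to 12.93 and leaves a gap between Naive_WT and all other groups, while Wars spans 10.70 to 12.51.

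The repeat arrays gave the same Indo level after normalization. Replicate 4 read 10.31 on its own array and 10.41 on 4R, and replicate 5 read 12.50 and 12.48 on 5R, although the raw signals of the latter pair were 6305 and 4412. Over the 18 arrays 26 to 47 beads carried the Indo probe, with a standard error over beads of 1.59% to 4.26% of the signal.

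Without DSS, the fitted log2 difference of Indo was 4.43 between Naive_KO and Naive_WT (SE 0.603), where 1 of 4 Naive_WT arrays detected it. With DSS it was 3.02 higher in DSS_KO than in DSS_WT (SE 0.603, 8.10-fold), where it ranked 10 of the 21938 probes tested. DSS against no treatment gave 4.77 in WT, again against Naive_WT, and 3.36 in KO (10.3-fold, rank 4). Indo met the call rule in all 4 comparisons, in which 0.656% (Naive_KO against Naive_WT), 0.862% (DSS_KO against DSS_WT), 1.74% (DSS_WT against Naive_WT) and 1.72% (DSS_KO against Naive_KO) of all tested probes were called. These comparisons chose the gene, so nothing is read from the counts. Between genotypes with DSS, Indo missed the call rule in 15 of 23 alternative settings, with log2 differences of 2.41 (without replicate 2 of DSS_WT) to 3.41 (without replicate 3). The call was also lost with no background correction for Naive_KO against Naive_WT, and in 5 of 23 alternative settings for DSS_KO against Naive_KO: with no filter, and without replicate 5 or 8 of DSS_KO or 14 or 16 of Naive_KO.

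The 2 differences against Naive_WT rest on a group at background. Each Naive_WT array was also set to the higher of its own Indo level and the lowest level among its detected probes (4.88 to 4.95). At the main setting Indo was then at least 17.8-fold higher in Naive_KO (log2 4.15) and at least 22.6-fold higher in DSS_WT (4.50). In DSS_KO it was at least 183-fold higher (7.51). These bounds hold for that setting only. With an offset of 50 the measured differences were 3.30 (Naive_KO) and 3.64 (DSS_WT). The genotype difference with DSS minus that without was -1.41 (SE 0.853), and limma called 0% of tested probes for this interaction, where 2339 had an unadjusted p under 0.05. Its sign turned with the treatment of background: with no background correction the same value was 0.28, where the differences against Naive_WT were 2.52 (Naive_KO) and 2.82 (DSS_WT) and those between the other groups 2.80 (DSS_KO against DSS_WT) and 3.10 (DSS_KO against Naive_KO). Without replicate 13 of Naive_KO it was -0.75, and the Naive_KO difference 3.77.

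Wars was bright in every group at its brightest probe, and its range there was far smaller than that of Indo. All 4 probes were detected on all 18 arrays. The probe at base 151 came near background in DSS_WT replicate 2, at a detection p of 0.0406. Its raw signal there was 133, beside a mean negative control signal of 119 on that array. At the brightest probe (base 1639) the log2 signal in Naive_WT was 10.97, 11.03, 10.70 and 10.70 in replicates 9 to 12 (mean 10.85 ± 0.17, SD, n = 4). In Naive_KO it was 11.70, 11.13, 11.37 and 10.99 in replicates 13 to 16 (mean 11.30 ± 0.31). The 2 naive groups overlapped, with the lowest KO sample below the highest WT sample.

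With DSS the same probe read 11.53, 10.89, 11.69 and 11.85 in DSS_WT replicates 1 to 4 (mean 11.49 ± 0.42) and 12.05, 11.82, 12.51 and 12.24 in DSS_KO replicates 5 to 8 (mean 12.16 ± 0.29). The groups stood in the same order as for Indo, and neighbours in that order overlapped. DSS_KO was separate from both naive groups, while its lowest sample lay just under the highest of DSS_WT. The log2 differences were 0.45 between genotypes without DSS (SE 0.204), 0.67 between genotypes with DSS, 0.64 in WT and 0.86 in KO for DSS against no treatment, or 1.36-fold, 1.59-fold, 1.56-fold and 1.81-fold. None of the 4 met the call rule at this probe.

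The 3 dimmer Wars probes gave another picture of wild-type mice. At base 1413, Naive_WT averaged 8.58 ± 0.20 and DSS_WT 8.56 ± 0.75, with DSS_WT samples at 8.85, 7.47, 9.18 and 8.73. The same probe averaged 9.31 ± 0.44 in Naive_KO and 10.25 ± 0.24 in DSS_KO (SD, n = 4), and DSS_KO lay between 9.99 and 10.52, above every other sample. Genotype thus separated the groups here more than treatment did in WT.

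The probes at bases 1141 and 151 had the same order of the KO and WT groups with DSS at lower levels, with more overlap. At base 1141 the means were 7.43 ± 0.28 in Naive_WT, 8.07 ± 0.58 in Naive_KO, 7.42 ± 0.44 in DSS_WT and 9.03 ± 0.29 in DSS_KO. At base 151 they were 6.31 ± 0.53, 6.86 ± 0.52, 6.15 ± 0.81 and 7.92 ± 0.36 in the same order. At both of these probes DSS_KO overlapped with Naive_KO, and the naive groups overlapped with each other, neither of which was so at base 1413. At all 3 dimmer probes DSS_KO did not overlap with DSS_WT, and Naive_WT and DSS_WT did overlap.

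**Figure D2:**
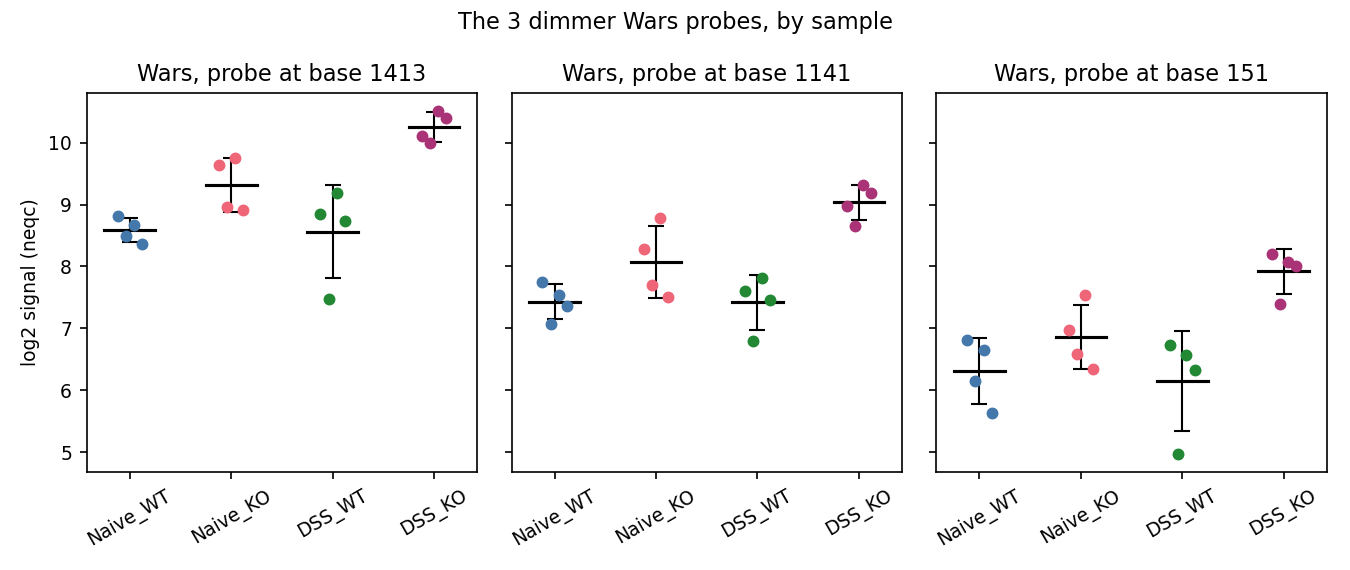
Log2 signal (neqc) of the 3 dimmer Wars probes in the 16 samples, named by their start in the transcript; points are samples, lines group means and bars SD (n = 4). DSS_KO stands above DSS_WT in each panel, and DSS_WT replicate 2 is the lowest point of each.

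Between genotypes with DSS, the dimmer probes differed by 1.69 (SE 0.288, base 1413), 1.61 (SE 0.262, base 1141) and 1.77 (SE 0.354, base 151), or 3.23-fold, 3.06-fold and 3.42-fold, against 0.67 at the brightest. Since Wars was chosen on measured values, these differences are a description. The 3 dimmer probes met the call rule in this comparison, where 0.862% of tested probes did, and nothing is read from that. Values that did not overlap between these groups were found at 14.7% of all tested probes. For DSS in WT the dimmer probes gave -0.02, -0.01 and -0.17, with SEs of 0.288, 0.262 and 0.354, against 0.64 at the brightest.

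The other pair of comparisons differed less between probes. Without DSS the genotype difference was 0.73, 0.64 and 0.55 at the dimmer probes, and DSS in KO gave 0.94, 0.96 and 1.06, each beside 0.45 and 0.86 at the brightest. With each sample left out in turn, that genotype difference ran over 0.58 to 0.87, 0.40 to 0.83 and 0.32 to 0.72 at the dimmer probes. The genotype difference with DSS minus that without was 0.96 (SE 0.408), 0.97 (SE 0.371) and 1.22 (SE 0.500) at the dimmer probes and 0.22 (SE 0.288) at the brightest, and no Wars probe met the call rule for it. Without replicate 2 of DSS_WT it was 0.60, 0.76 and 0.83 at the dimmer probes and 0.02 at the brightest. The genotype difference of Wars was larger with DSS than without at all 4 probes, by less than its SE at the brightest, whereas that of Indo was smaller with DSS at the main setting.

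**Figure D3:**
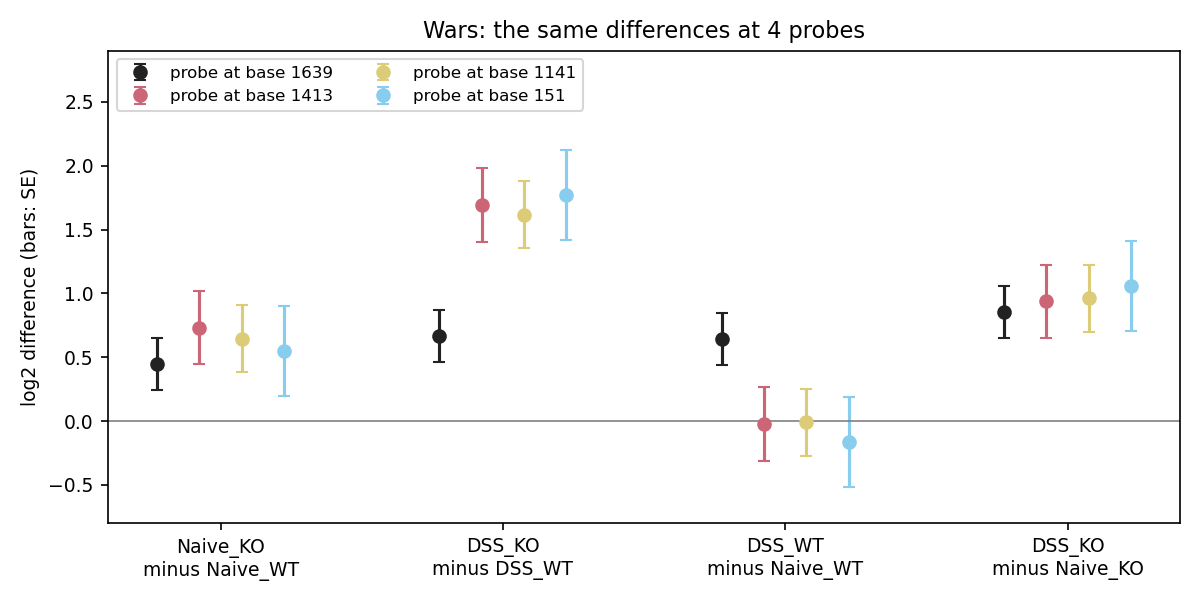
Log2 differences of Wars at its 4 probes in 4 comparisons; points are differences of group means (n = 4 per group) and bars SE from the fit over all probes. The probe at base 1639 reads 0.64 for DSS in WT, where the others read -0.17 to -0.01, and 0.67 for genotype with DSS, where the others read 1.61 to 1.77.

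Within samples, the gap between a dimmer probe and the brightest carried these contrasts directly. For genotype with DSS the difference at the dimmer probes exceeded that at the brightest by 1.03 (SE 0.190, base 1413), 0.95 (SE 0.217, base 1141) and 1.11 (SE 0.303, base 151), and for DSS in WT it fell short by -0.66, -0.65 and -0.80. Leaving out each sample in turn kept the first set of gaps between 0.84 and 1.29 and the second between -0.98 and -0.50. The first set was smaller with no background correction. Genotype with DSS then read 1.45, 1.20 and 0.985 at the dimmer probes and 0.65 at the brightest. DSS in WT read 0.0046, 0.0012 and -0.05 there, beside 0.61. Replicate 2 of DSS_WT was the lowest of its group at all 4 Wars probes and for Indo, and without it DSS in WT read 0.34, 0.20 and 0.23 at the dimmer probes and 0.84 at the brightest. Under median scaling, which moved the median of all tested probes to 0.24, the dimmer probes read 0.33, 0.30 and 0.05, or 0.092, 0.056 and -0.19 relative to that median. The values for DSS in WT at the dimmer probes thus lay near 0 and took either sign with the setting and with replicate 2.

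Indo and Wars varied together over the samples. Pearson's r between Indo and the brightest Wars probe was 0.914 over 16 samples (Spearman 0.929), and 0.778 after each group's mean was taken off both. With the dimmer probes r was 0.763 (base 1413), 0.748 (base 1141) and 0.676 (base 151), and 0.768, 0.598 and 0.591 for deviations from group means. These points share arrays, normalization and 4 groups that differ in both genes, and the values are a description. In Naive_KO replicate 13 was highest for Indo (11.07) and for Wars at base 1639 (11.70), and in DSS_WT replicate 2 was lowest for both (7.62 and 10.89). The order was not shared throughout: at the 3 dimmer Wars probes replicate 15 was the highest of Naive_KO, at 9.75, 8.79 and 7.53, and in DSS_KO Indo was highest in replicate 8 and Wars at base 1639 in replicate 7.

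**Figure D4:**
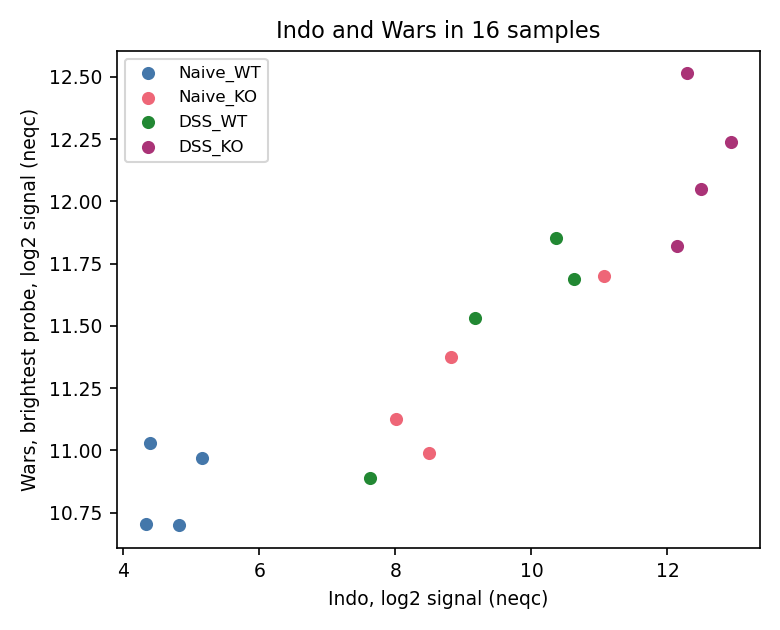
Log2 signal (neqc) of Wars at its brightest probe against Indo in the 16 samples, coloured by group. Samples climb together from Naive_WT at the lower left to DSS_KO at the upper right (r = 0.914), with Naive_KO and DSS_WT mixed in between.

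The 3 dimmer Wars probes followed each other more closely than they followed the brightest. Among them r was 0.973, 0.959 and 0.948 over the 16 samples, and with the probe at base 1639 it was 0.825, 0.801 and 0.764. The same order held for deviations from group means, at 0.852 to 0.892 against 0.681 to 0.827.

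With 1 probe per gene, the 5 genes most like Indo over the 16 samples were Cxcl9, a chemokine that draws T cells (r = 0.979), Ly6a, a surface protein (0.974), Igtp, a GTPase of the immunity-related family (0.963), Psmb10, a proteasome subunit (0.956), and Lgals3bp, a secreted glycoprotein (0.955). Cxcl9 was also the most like by deviations from group means (0.915). Wars ranked 50 of 15756 genes, and 24 by deviations. The 5 genes most like Wars were Ccnd1, or cyclin D1 (0.953), Trafd1 (0.944), the guanylate-binding proteins Gbp2 (0.934) and Gbp3 (0.930), and Igtp (0.930), and Ido1 ranked 19, or 22 by deviations. Igtp was on both lists, and Ccnd1 remained the most like Wars by deviations (0.857).

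The other genes of tryptophan use and tRNA charging were called about as often as all tested probes. Of 85 genes on 7 lists of the tryptophan and tRNA synthetase pathways, 63 were tested, and limma called 0 in DSS_KO against DSS_WT, 1 in Naive_KO against Naive_WT, 1 in DSS_WT against Naive_WT, 0 in DSS_KO against Naive_KO and 0 for the interaction, beside 0.862%, 0.656%, 1.74%, 1.72% and 0% of all tested probes. At an unadjusted p under 0.05 the counts were 12, 19, 22, 11 and 6, or 19%, 30.2%, 34.9%, 17.5% and 9.52% of the 63, beside 22.2%, 22.8%, 26.3%, 24.5% and 10.7% of all tested probes. The 63 genes' median log2 difference was 0.04, 0.08, 0.11, -0.02 and -0.05 in the same order, beside medians over all tested probes of -0.0034, -0.0011, -0.01, -0.02 and -0.01.

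Of the kynurenine route downstream and beside Ido1, 5 of 13 genes were tested and limma called 0 in any comparison, with 2, 1, 2 and 2 at an unadjusted p under 0.05 (genotype without DSS, genotype with DSS, DSS in WT, DSS in KO), or 40%, 20%, 40% and 40%, beside 22.8%, 22.2%, 26.3% and 24.5% of all tested probes. Ido2 was detected on 2 arrays and Acmsd on 1, and Tdo2, Kynu, Kmo, Haao, Qprt and Aadat missed the 4 arrays required as well. The brightest of the route were Got2, an aminotransferase whose main role is in aspartate metabolism, with differences of 0.13 (genotype without DSS), 0.12 (genotype with DSS), 0.17 (DSS in WT) and 0.17 (DSS in KO), and Ccbl1, which makes kynurenic acid, with -0.32, -0.49, -0.34 and -0.52 in the same order. For Ccbl1 the adjusted p by limma was 0.0112 between genotypes with DSS and 0.00547 for DSS in KO, short of the log2 difference of 1 in the call rule.

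In the serotonin route, the other fate of tryptophan in the gut, 3 of 5 genes were tested and limma called 0, with 100%, 66.7%, 66.7% and 66.7% of the 3 at an unadjusted p under 0.05, beside 22.8%, 22.2%, 26.3% and 24.5% of all tested probes, and medians of -0.75 (genotype without DSS), -0.78 (genotype with DSS), -0.83 (DSS in WT) and -0.88 (DSS in KO). Ddc, the decarboxylase that completes serotonin, averaged 11.34 ± 0.38 in Naive_WT, 10.59 ± 0.14 in Naive_KO, 10.49 ± 0.08 in DSS_WT and 9.71 ± 0.15 in DSS_KO (SD, n = 4), the reverse of the order of Indo. Its differences were -0.75, -0.78, -0.85 and -0.88, with adjusted p by limma of 0.0121, 0.00883, 0.00271 and 0.00265, and each was under the size that the rule requires. At a dimmer Ddc probe DSS in KO read -1.04 (adjusted p 0.000528, limma) and met the rule. Tph1, the rate-limiting enzyme of the route in enterochromaffin cells, gave -0.85 between genotypes without DSS (adjusted p 0.134, limma) and -0.60 with DSS (adjusted p 0.297), while DSS gave 0.11 in WT (adjusted p 0.867) and 0.36 in KO (adjusted p 0.542), against the sign of the list medians there. Chga, a marker of the enteroendocrine cells that hold Tph1, differed by -0.60 (adjusted p 0.209, limma) and -0.66 (adjusted p 0.164), and its part in the serotonin route values was not tested.

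Of the tryptophan transport list 6 of 8 genes were tested, with median log2 differences of -0.31 (genotype without DSS), -0.12 (genotype with DSS), -0.23 (DSS in WT) and -0.08 (DSS in KO). At an unadjusted p under 0.05 there were 5, 1, 2 and 1 genes, or 83.3%, 16.7%, 33.3% and 16.7%, beside 22.8%, 22.2%, 26.3% and 24.5% of all tested probes. Between genotypes without DSS, Slc3a2, the heavy chain of several amino acid carriers, differed by -0.48 (adjusted p 0.0933, limma) and Slc16a10, a carrier of aromatic amino acids, by 0.44 (adjusted p 0.103). Slc6a19, a carrier of neutral amino acids in the gut, differed by -0.30 (adjusted p 0.194), but was detected on 3 of 4 Naive_WT arrays and 0 of 4 Naive_KO arrays.

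Of the aryl hydrocarbon receptor list 4 of 9 genes were tested. Ahr itself, Cyp1a1, Cyp1a2, Cyp1b1 and Tiparp did not pass the filter. Nfe2l2, which encodes the antioxidant regulator Nrf2, was called lower in DSS_WT than in Naive_WT, at a log2 signal of 7.67 ± 0.43 against 8.78 ± 0.39 (SE of the difference 0.242, adjusted p 0.00908, limma), and its call was lost in 15 of 23 alternatives. It read 8.33 ± 0.48 in Naive_KO and 8.29 ± 0.13 in DSS_KO, with differences of -0.44 (genotype without DSS, adjusted p 0.292, limma), 0.62 (genotype with DSS, adjusted p 0.141) and -0.04 (DSS in KO, adjusted p 0.937), none called, and the interaction was 1.06 (adjusted p 0.270).

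Of the amino acid starvation response, in which uncharged tRNA raises translation of Atf4, 11 of 14 genes were tested and limma called 0. Its median difference was 0.24 (genotype without DSS), 0.07 (genotype with DSS), 0.33 (DSS in WT) and 0.31 (DSS in KO), and 1, 1, 9 and 5 genes had an unadjusted p under 0.05 (9.09%, 9.09%, 81.8% and 45.5% of the list, beside 22.8%, 22.2%, 26.3% and 24.5% of all tested probes). At an adjusted p under 0.05 there were 3 genes for DSS in WT, all higher and all short of the call rule: Cebpb, a transcription factor (0.73, adjusted p 0.00238, limma), Psat1, an enzyme of serine synthesis (1.03, adjusted p 0.0103), and Trib3, a pseudokinase (1.05, adjusted p 0.0210). Atf4 differed by -0.21 (genotype without DSS), -0.30 (DSS in WT), -0.09 (DSS in KO) and 0.0026 between genotypes with DSS, and Ddit4, a brake on mTOR signalling, by 0.30 (genotype without DSS), 0.52 (genotype with DSS), -0.01 (DSS in WT) and 0.22 (DSS in KO), all with adjusted p of 0.135 or more by limma.

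Wars stood out from its own enzyme class in size. All 19 other cytosolic tRNA synthetases were tested, and limma called 0, with 5, 3, 5 and 1 at an unadjusted p under 0.05 (genotype without DSS, genotype with DSS, DSS in WT, DSS in KO), or 26.3%, 15.8%, 26.3% and 5.26%, beside 22.8%, 22.2%, 26.3% and 24.5% of all tested probes. Between genotypes with DSS they ranged from -0.19 to 0.37 with a median of 0.12, and each of the 4 Wars probes lay above all 19. For DSS in KO the range was -0.15 to 0.40, again under all 4 Wars probes. Without DSS the genotype range was -0.23 to 0.48, and the brightest Wars probe was below 1 gene, Mars. For DSS in WT the brightest Wars probe lay above all 19, whose highest value was 0.51 (Vars), while 14 to 17 of the 19 lay above the dimmer Wars probes. The brightest of the class, Gars, gave 0.30 and -0.01 for genotype without and with DSS, and Qars gave -0.10 and -0.02. Each of the 19 stands at its brightest probe, so like is set beside like only at the brightest Wars probe. Since Wars was chosen for these values, its place in the class is a description.

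Of the mitochondrial synthetases 15 of 17 were tested and limma called 0, with 3, 3, 1 and 0 at an unadjusted p under 0.05 (20%, 20%, 6.67% and 0%, beside the same shares of all tested probes) and medians between -0.11 and 0.09 in the 4 comparisons. Rars2, among the brightest, gave -0.09, -0.12, -0.13 and -0.16, and with DSS Iars2 gave -0.17 in WT and -0.15 in KO. Wars2, which charges mitochondrial tRNA with tryptophan, gave -0.16 (genotype without DSS), -0.35 (genotype with DSS), 0.31 (DSS in WT) and 0.12 (DSS in KO), with adjusted p between 0.209 and 0.703 by limma, and is named for its amino acid.

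Interferon gamma signalling is the known inducer of both enzymes. Of 24 tested genes of this list limma called 7 in Naive_KO against Naive_WT, 4 in DSS_KO against DSS_WT, 7 in DSS_WT against Naive_WT and 2 in DSS_KO against Naive_KO, all higher in the KO or with DSS, beside 0.656%, 0.862%, 1.74% and 1.72% of all tested probes. It called 0 for the interaction, where 4 had an unadjusted p under 0.05. In the 4 comparisons 79.2%, 75%, 75% and 75% of the list had an unadjusted p under 0.05, beside 22.8%, 22.2%, 26.3% and 24.5% of all tested probes. Those called without DSS between genotypes were Psmb8 (3.04), Psmb9 (2.21), Tap1 (2.44), Ifi47 (2.64), Igtp (2.59), Irf9 (1.15) and Ciita. Psmb8, Psmb9 and Tap1 prepare peptides for MHC class I, Ifi47 and Igtp are GTPases, and Ciita is the master regulator of MHC class II genes. Ciita was detected on 0 of 4 Naive_WT arrays and at the main setting was at least 5.68-fold higher (log2 2.50, by the same floor as Indo). With DSS those called between genotypes were Ciita (3.47), the ubiquitin-like Ubd (3.02), Psmb8 (2.19) and Ifi47 (2.03). DSS in WT gave the chemokines Cxcl9 (3.13) and Cxcl10 (1.498), the GTPases Gbp2 (2.895), Gbp3 (2.07), Igtp (2.49) and Ifi47 (1.98), and Tap1 (1.82), and DSS in KO gave Gbp2 (2.47) and Cxcl10 (1.04). The list's medians were 1.14, 0.91, 0.98 and 0.91 in that order, beside the medians over all tested probes given above. The list was chosen with earlier results of these samples known. Leaving out 1 sample gave 5 (without Naive_WT replicate 10) to 11 (Naive_KO 16) calls in the first, 1 (DSS_WT 2) to 7 (Naive_KO 13) in the second, 1 (DSS_WT 3) to 9 (DSS_WT 2) in the third, and 0 (DSS_WT 4) to 10 (Naive_KO 13) in the last.

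Irf1, a transcription factor that interferon gamma induces, differed at its brightest probe by 0.83 (genotype without DSS), 0.55 (genotype with DSS), 0.88 (DSS in WT) and 0.60 (DSS in KO), and another bright probe of Irf1 was called in Naive_KO against Naive_WT (1.12) and in DSS_WT against Naive_WT (1.09). The receptor chains Ifngr1 (0.04, -0.10, -0.20 and -0.34) and Ifngr2 (-0.40, 0.09, 0.17 and 0.66) were not called. Socs1, the feedback inhibitor, was near background, detected on 1 of 4 arrays of each naive group, 3 of 5 of DSS_WT and 5 of 5 of DSS_KO, with means of 4.82 ± 0.15 (Naive_WT), 4.78 ± 0.19 (Naive_KO), 4.98 ± 0.16 (DSS_WT) and 5.41 ± 0.30 (DSS_KO).

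Ifng, the ligand, was near background. It was detected on 0 of 4 Naive_WT arrays, 1 of 4 Naive_KO arrays, 0 of 5 DSS_WT arrays and 3 of 5 DSS_KO arrays, with means of 4.41 ± 0.07, 4.77 ± 0.42, 4.69 ± 0.03 and 4.97 ± 0.25 (SD, n = 4). Its differences were 0.36, 0.28, 0.28 and 0.19, with adjusted p between 0.213 and 0.515 by limma.

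**Figure D5:**
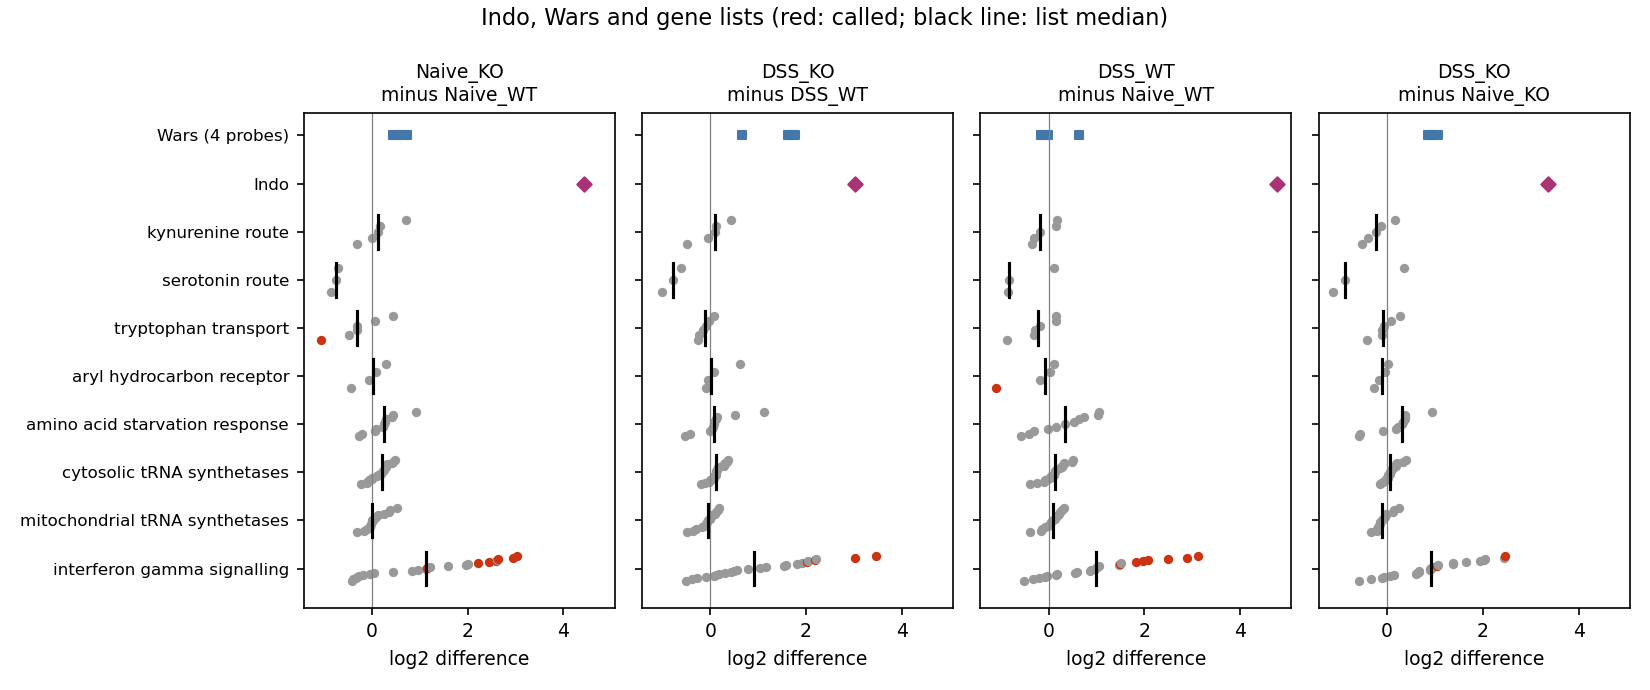
Log2 differences in 4 comparisons of Indo (diamond), the 4 Wars probes (squares) and 8 gene lists; each point is a gene at its brightest probe, red where called, and black lines are list medians. Indo lies to the right of every listed gene except in DSS_KO against DSS_WT, where Ciita (3.47) and Ubd (3.02) reach its 3.02, and the tryptophan and synthetase lists have medians between -0.31 and 0.33 apart from the serotonin route.

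The sorted cells carried epithelial markers on every array, 13 of 13 genes in each group, with mean log2 signals of 11.66 to 11.93 over the samples. Of 15 myeloid and dendritic cell markers, cells in which Ido1 is also known, 6 were detected on all arrays of each naive group and 8 with DSS. Their mean log2 signal was 5.31 to 5.58 in Naive_WT, 5.45 to 5.83 in Naive_KO, 5.86 to 6.27 in DSS_WT and 6.09 to 6.19 in DSS_KO. Itgax, Itgam, Xcr1, Clec9a and Flt3 were detected on 0 of 18 arrays and Ptprc, or CD45, on 3. The list means overlapped between genotypes in both treatments, but not at every marker. All 8 tested markers had a higher mean in Naive_KO than in Naive_WT, with a median log2 difference of 0.50, and 6 of 8 were higher in DSS_KO than in DSS_WT (median 0.17). With DSS, Aif1 lay between 5.80 and 6.62 in WT and between 6.76 and 7.11 in KO. Without DSS the KO and WT means were 6.19 and 5.52 for Csf1r, 8.18 and 7.41 for Lyz2 and 10.68 and 9.99 for Cd14, with samples that overlapped between genotypes at each. Between genotypes limma called 0 of the 8 tested markers, with 5 (without DSS, 62.5%) and 2 (with DSS, 25%) at an unadjusted p under 0.05, beside 22.8% and 22.2% of all tested probes. With DSS in WT 5 of 8 tested markers (Cd68, Csf1r, Emr1, Aif1 and Lyz2) were called higher, as were 2 (Aif1 and Lyz2) with DSS in KO, beside 1.74% and 1.72% of all tested probes called in either direction.

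T and NK cell markers averaged 4.74 to 4.94 in Naive_WT, 4.80 to 4.88 in Naive_KO, 4.99 to 5.23 in DSS_WT and 5.02 to 5.16 in DSS_KO, with Cd8a detected on 0 arrays. Cd3d and Cd3g were detected on 0 naive arrays, on 5 and 4 of 5 DSS_WT arrays and on 3 and 2 of 5 DSS_KO arrays. Of 6 tested markers, 6 were higher with DSS in WT and 5 in KO, with 3 in each at an unadjusted p under 0.05. That was 50%, beside 26.3% and 24.5% of all tested probes. Between genotypes the shares were 0% (without DSS) and 16.7% (with DSS), beside 22.8% and 22.2%, and limma called 0 in any comparison. Endothelial and fibroblast markers averaged 7.10 to 7.60 in Naive_WT, 6.86 to 7.26 in Naive_KO, 7.50 to 8.11 in DSS_WT and 6.93 to 7.47 in DSS_KO. Of these, 11 of 12 were detected on all arrays of every group. With DSS the list means of KO lay below those of WT without overlap. Between genotypes with DSS 11 of 12 of these markers were lower in KO (median -0.78), 8 had an unadjusted p under 0.05 (66.7%, beside 22.2% of all tested probes) and limma called 2 lower, Tek (-1.05) and Emcn (-1.14). Without DSS 9 of 12 were lower in KO (median -0.19). There 5 had an unadjusted p under 0.05 (41.7%, beside 22.8% of all tested probes) and limma called 0. For DSS in WT 11 of 12 were higher (median 0.63), 9 had an unadjusted p under 0.05 (75%, beside 26.3% of all tested probes) and limma called 1 higher, Pdgfra (1.38). For DSS in KO the median was 0.05, with 2 at an unadjusted p under 0.05 and 0 called by limma. The part of other cell types in the genotype and DSS differences of Indo and Wars was not tested.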

How the data were processed

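The deposited table holds, per the file headers, the mean bead intensity of each probe on 18 Illumina MouseWG-6 BeadChip arrays, exported by the authors without normalization or background subtraction, with a detection p-value, the standard error over beads and the number of beads. The submitters' notes name lumi and limma for their own processing. Here neqc (limma 3.58.1, R 4.3.3) took background from the 936 negative controls, added an offset of 16, equalised the quantiles of the arrays and gave log2 values, and arrays 4R and 5R were averaged with 4 and 5. The filter kept the 21938 of 45281 probes that 4 or more of 18 arrays detected at p under 0.05. A mean per group was fitted with limma to all 16 samples, and p-values were adjusted by Benjamini-Hochberg over all tested probes (two-sided). No label says that replicates come from separate animals, so p-values measure the spread between these samples. Where a listed gene has several probes, the one with the highest mean signal stands for it. Array intensities bound the precision by the number of arrays, not by read depth. The members and the gene lists were chosen with earlier results of these data known. Named were all probes of both members, called genes of each pathway list (at most 4) or otherwise its 2 brightest, Irf1, Ifngr1, Ifngr2, Socs1 and Ifng, and the 5 genes most like each member; others named in the text were chosen after their values were seen. Alternatives tried were no background correction, median scaling, an offset of 50, no filter, all 18 arrays as separate samples, 4R and 5R left out, only the compared groups in the fit, each sample left out, and, chosen after seeing the data, the mean of the 3 dimmer Wars probes. The fit was tested on simulated data. Gene symbols were updated through RefSeq (GRCm38.p6), and promoter and protein sequences of the 2 genes were not used here. Results for 2 of the listed genes are not reported here, and counts over the lists include them.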

Additional observations from a re-analysis of the deposited data

How the results depend on the processing

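Indo kept its sign in 113 of 114 planned values and Wars at its brightest probe in 114 of 114. With no background correction Indo read 2.52 (Naive_KO minus Naive_WT), 2.82 (DSS_WT minus Naive_WT) and 0.28 (interaction, the turned sign), and with an offset of 50 it read 3.30, 3.64 and -0.37. Median scaling put Wars at 1.03 (DSS in WT) and 1.27 (DSS in KO). It also moved the median of all tested probes by 0.24 and 0.23 there, and changed the calls from 294 higher and 88 lower to 625 and 35, and from 235 and 142 to 630 and 91. Between genotypes with DSS it changed them from 110 and 79 to 109 and 151. With no background correction the calls were 40 and 9 (genotype with DSS), 41 and 15 (without DSS), 71 and 14 (DSS in WT) and 72 and 47 (DSS in KO). The mean of the 3 dimmer Wars probes, added after seeing the data, gave 1.69 (genotype with DSS), -0.066 (DSS in WT) and 1.05 (interaction).

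Pathway genes called without DSS numbered 0, in place of 1, with no background correction, with an offset of 50 and with only the groups compared. For DSS in WT (1) they numbered 0 with these 3 and with no filter, 3 with median scaling and 3 with all 18 arrays as separate samples. For DSS in KO (0) median scaling gave 1. Interferon gamma genes called with DSS between genotypes (4) became 2 with no background correction, 2 with no filter and 8 with all 18 arrays. Without DSS (7) they became 4 with no background correction and 1 with only the groups compared. For DSS in WT (7) they became 2 with no background correction, 12 with median scaling, 4 with an offset of 50 and 2 with no filter. For DSS in KO (2) they became 1, 13, 0 with no filter, 7 with all 18 arrays and 0 with only the groups compared.

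Leaving out each sample in turn gave 0 to 1 (genotype without DSS), 0 to 2 (DSS in WT) and 0 to 1 (DSS in KO) pathway genes, and 1 to 7 (genotype with DSS), 5 to 11, 1 to 9 and 0 to 10 interferon gamma genes. Indo ranged over 2.41 to 3.41 (genotype with DSS), 3.77 to 4.79 (without DSS), 4.38 to 5.38 (DSS in WT), 3.00 to 4.02 (DSS in KO) and -2.02 to -0.75 (interaction), and Wars over 0.47 to 0.79, 0.31 to 0.55, 0.52 to 0.84, 0.74 to 0.99 and 0.02 to 0.35. The cause of these shifts was not tested. No paired analysis was possible because the 4 groups share none of their replicate numbers, which run from 1 to 16. The array position on a BeadChip was not run as a block, since the headers used here name no chip. Array signal near background limits Indo and Ciita in Naive_WT, Socs1 and Slc6a19 in several groups and Ifng in every group. It also limits the Wars probe at base 151 in DSS_WT replicate 2 (log2 signal 4.96). Without that replicate the genotype difference with DSS at this probe was 1.38, in place of 1.77.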
